A study of Mus musculus with 2 samples.

Results

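The zinc finger genes of mouse chromosome 7 were examined in embryonic mouse telencephalon labelled as a conditional knockout of the histone variant H2A.Z. A gene was taken when its symbol is Zfp followed by digits, its position in the deposited table lies on chromosome 7, and its read counts in both libraries sum to at least 20. Of 88 such genes on the chromosome, 82 met the minimum, out of 19202 genes in the table. The study compared an H2AZ conditional knockout (H2AZcKO, below the knockout) with H2AZfl/fl floxed tissue (the control) at embryonic day 12, on the C57BL/6 background. Both carry the floxed H2AZ allele. Which promoter drives the Cre recombinase is not given here. The tissue is labelled telencephalic while the protocol speaks of cerebral cortex. The series text speaks of triplicates, yet the table used holds 1 count column per genotype, so no difference below has a replicate check and no p-value is given.

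Zinc finger proteins of the C2H2 type bind DNA through arrays of small zinc-binding loops, each of which reads a few neighbouring bases. Many carry a KRAB domain, which recruits the co-repressor TRIM28 (KAP1) and with it enzymes that deposit repressive methylation on histone H3 and on DNA, and they are best known for silencing transposable elements. Their genes arose by repeated local duplication and lie in clusters, of which mouse chromosome 7 holds several. H2A.Z replaces ordinary H2A in part of the nucleosomes, above all at promoters and enhancers.

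Promoter sequences were available in the RefSeq table (GRCm38.p6) for 75 of the 82 genes, each running from 250 bases before to 50 bases after the annotated start. The promoters of Zfp382 and Zfp420 are shown because these genes, from the same stretch of the chromosome, had the lowest and the highest ratio between the libraries. In the Zfp382 promoter (chr7:30121682-30121981, plus strand), capitals mark the GC box GGGCGG on either strand. In the Zfp420 promoter (chr7:29859762-29860061, plus strand), capitals mark CCAAT boxes on either strand and the 13-base ZFP143 core, a motif that the transcription factor ZFP143 is known to bind.
Zfp382: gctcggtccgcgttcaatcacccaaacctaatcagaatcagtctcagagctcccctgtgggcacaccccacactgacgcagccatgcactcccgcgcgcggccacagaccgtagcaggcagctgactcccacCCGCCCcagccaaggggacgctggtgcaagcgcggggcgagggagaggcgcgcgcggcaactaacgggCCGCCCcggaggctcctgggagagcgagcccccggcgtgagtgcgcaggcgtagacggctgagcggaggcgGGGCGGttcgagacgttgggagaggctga
Zfp420: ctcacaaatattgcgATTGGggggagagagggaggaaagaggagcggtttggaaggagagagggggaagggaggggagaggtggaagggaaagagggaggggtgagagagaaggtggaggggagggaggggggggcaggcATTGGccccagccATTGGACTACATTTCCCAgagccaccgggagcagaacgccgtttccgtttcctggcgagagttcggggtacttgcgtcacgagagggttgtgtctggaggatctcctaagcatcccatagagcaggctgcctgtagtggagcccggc

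The core was searched in all promoters after it had been read in that of Zfp420. It was present on either strand in 21 of 75 promoters of these genes (28.0%), against 385 of 10520 promoters of all genes with at least 20 counts (3.66%). Other chromosome 7 genes held it in 43 of 790 promoters (5.44%), and Zfp genes of other chromosomes in 22 of 188 (11.7%). The 21 promoters held 24 copies, between 150 bases before and 32 after the start. Those with it lay in 4 neighbouring stretches of the chromosome and were most frequent from Zfp60 to Zfp146, with 11 of 19 promoters, and from Zfp180 to Zfp526, with 6 of 11. The 8 windows below come from these stretches, read in the direction of the core, with the core in capitals and 8 bases on each side. They lie at chr7:24208194-24208222 for Zfp111, chr7:24237704-24237732 for Zfp109, chr7:24254661-24254689 for Zfp108, chr7:24270337-24270365 for Zfp93, chr7:29859912-29859940 for Zfp420, chr7:30090566-30090594 for Zfp566, chr7:30095038-30095066 for Zfp260, chr7:30169852-30169880 for Zfp146, in GRCm38.p6 coordinates.
Zfp111: cttttgggACTACATTTCCCAgaatgcta
Zfp109: gcgccggaACTACAGTTCCCAgaatgcgt
Zfp108: tttctgggACTACATTTCCCAgaacgaga
Zfp93: gcgttggaACTACAATTCCCAgaattcct
Zfp420: gccattggACTACATTTCCCAgagccacc
Zfp566: tcggactgACTACATTTCCCAgagggctc
Zfp260: aactgtgaACTACATTTCCCAgaagtctc
Zfp146: gactttggACTACACTTCCCAcaaggcac

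**Figure D1:**
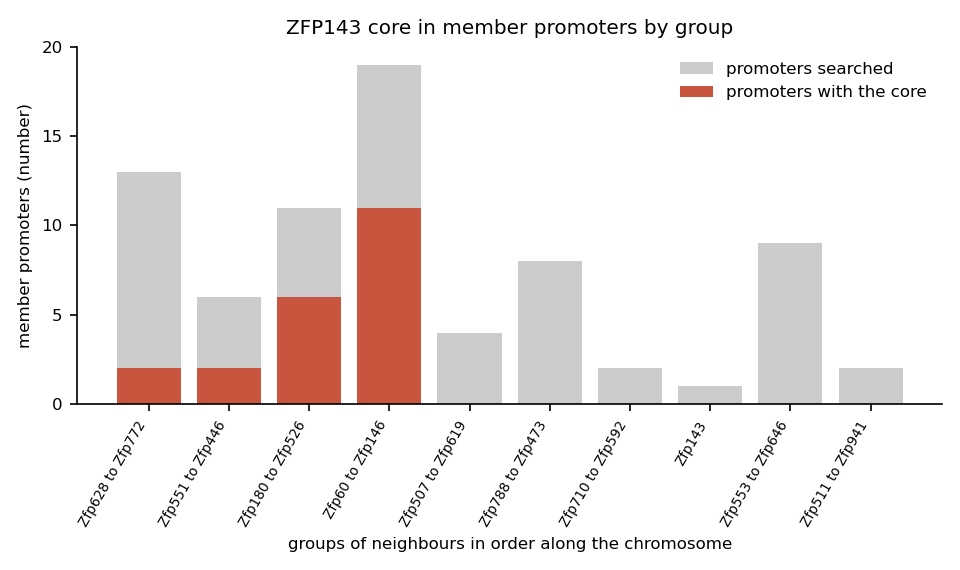
Promoters that hold the ZFP143 core, counted per stretch of neighbouring zinc finger genes along chromosome 7 (x axis, in order) beside the promoters available (y axis, number of promoters). The core occurred in 11 of 19 promoters from Zfp60 to Zfp146 and in none of those from Zfp507 onward.

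A match describes the sequence and says nothing of binding in this tissue. Among the 21 genes with the core, 15 had a ratio of the knockout to the control below 1, with a median ratio of 0.901. The 54 genes without it had a median ratio of 0.937, and 37 of them were below 1. Zfp143, the gene of the factor itself, had 385 counts in the knockout and 391 in the control, a ratio of 1.02 (95% counting interval 0.883 to 1.18). GC boxes were in 37.3% of promoters of these genes and 66.3% of all promoters.

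Ratios compare counts scaled by the trimmed mean of M values (TMM), knockout over control. Intervals are exact Clopper-Pearson and cover counting error only. The deposited counts summed to 8839840 in the knockout and 8891198 in the control. H2afz, the targeted gene, had 1664 and 2605 counts, a ratio of 0.661, so part of its transcript remained. Its paralogue H2afv, which also encodes an H2A.Z protein, had 2752 and 2270 (1.25), and Setd2, a histone methyltransferase named in the study's title, 1160 and 1342 (0.894). Of sex-linked genes, Xist had 6384 counts in the knockout and 200 in the control, while Kdm5d had 5 and 647. Eif2s3y had 1 and 630, Ddx3y 0 and 249, and Uty 2 and 190. The libraries thus differ in sex as well as in genotype, and with 1 column per genotype sex and genotype cannot be told apart in the values below. All 6 hypothalamic and diencephalic markers were lower in the knockout (summed 13.4 against 56.9 CPM, the count scaled to a fixed library size, with Nkx2-4 at 0), all 5 erythroid markers higher (514 against 268), 4 of 5 macrophage markers higher (25.4 against 16.1), and 8 telencephalic markers summed to 1986 and 1834. The part of these other cell types in the values below was not tested, and fewer cells of a type cannot be told apart from less RNA per cell.

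Of the 82 genes, 57 (69.5%) had a ratio below 1, beside 48.8% of the 14004 genes with at least 20 counts. Their median log2 ratio was -0.10, against 0.01 over all genes, and the middle range of their ratios ran from 0.846 to 1.02. The counts of all 82 summed to 21606 in the knockout and 22980 in the control, a ratio of 0.973 (0.955 to 0.991). Of the Zfp genes of other chromosomes, 153 of 235 (65.1%) were below 1, with a median of -0.08, and the difference from chromosome 7 was not tested. The other 996 genes of the chromosome had 51.5% below 1.

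**Figure D2:**
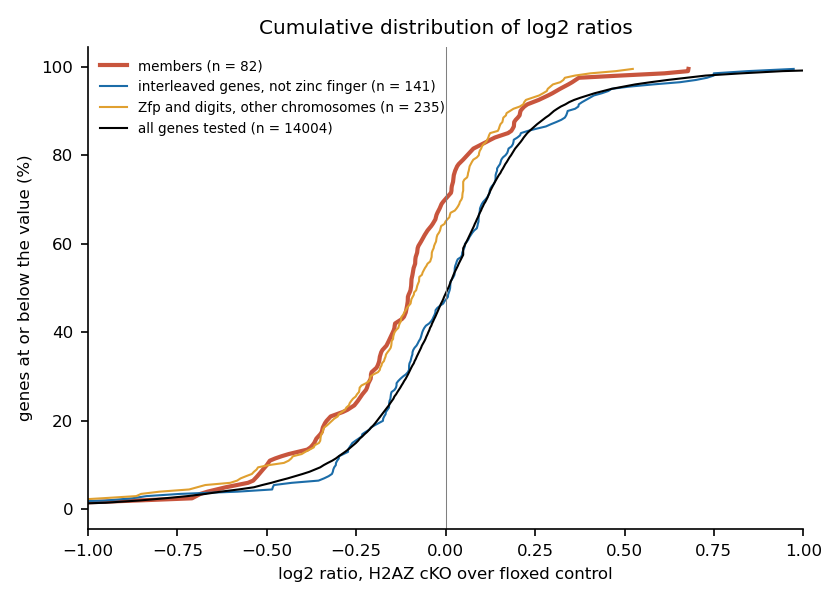
Cumulative distribution of log2 ratios of knockout to control: the percent of genes (y axis) at or below each log2 ratio (x axis) for the 82 zinc finger genes, 141 genes between them that are not zinc finger genes, 235 Zfp genes of other chromosomes and all 14004 genes. Values beyond the ends of the x axis are not drawn. At a log2 ratio of 0 the curve of the 82 genes stands at 69.5% and that of all genes at 48.8%.

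**Figure D3:**
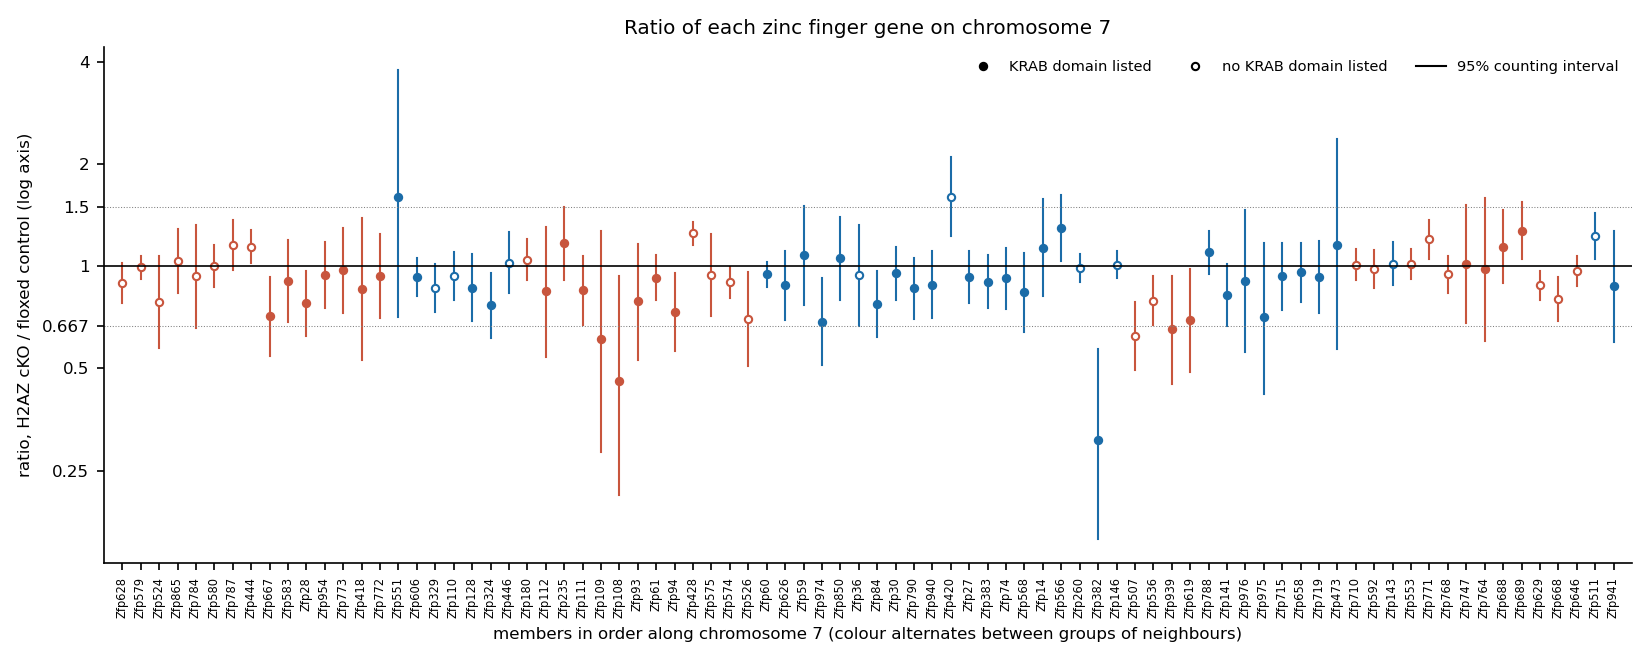
Ratio of knockout to control (y axis, log scale) for the 82 zinc finger genes in their order along chromosome 7 (x axis), with 95% counting intervals. More points lie below 1 than above, 57 against 25, and Zfp382 is the lowest.

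At least 1.5-fold lower in the knockout were 5 of the 82 genes (6.10%, beside 4.45 percent of all genes), namely Zfp382, Zfp108, Zfp109, Zfp507 and Zfp939. Of these, Zfp108 (11.9%), Zfp507 (27.5%) and Zfp939 (11.9%) share 10% or more of their 50-base words with other genes. Without all such genes the count was 2 of 62 (3.23%). Shared words were not computed for all genes, so no matching share over all genes can be set beside the 62. Higher by that size were 2 (2.44%, beside 3.35 percent), Zfp420 and Zfp551. At 2-fold, 2 were lower (beside 1.42 percent) and 0 higher (beside 0.85 percent). The counting interval lay below 1 for 16 genes (19.5%, beside 11.3 percent of all genes) and above 1 for 7 (8.54%, beside 12.9 percent). Without the genes that share 10% or more of their words, it lay below 1 for 10 of 62 (16.1%) and above 1 for 4 (6.45%). The authors' deposited table marks 1 of the 82 as significant, Zfp382, and 172 of all 19202 genes.

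Zfp382, a KRAB zinc finger gene with 9 fingers at 30121942 to 30134665 on the plus strand, had 14 counts in the knockout and 47 in the control. These are 1.61 and 5.21 CPM, a ratio of 0.308 (0.157 to 0.569), the lowest of the 82. Zfp420, whose human counterpart is known as a KRAB protein that restrains p53, lies at 29859979 to 29877292 and encodes 19 fingers. It had 144 and 93 counts (16.5 and 10.3 CPM), a ratio of 1.60 (1.23 to 2.10), the highest of the 82. The extremes in both directions lay in the same stretch, from Zfp60 to Zfp146. No 50-base word of either transcript was shared with another gene. The genes beside Zfp420 were Zfp940, with 146 and 171 counts (0.883), and Zfp27, with 238 and 265 (0.929).

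**Figure D4:**
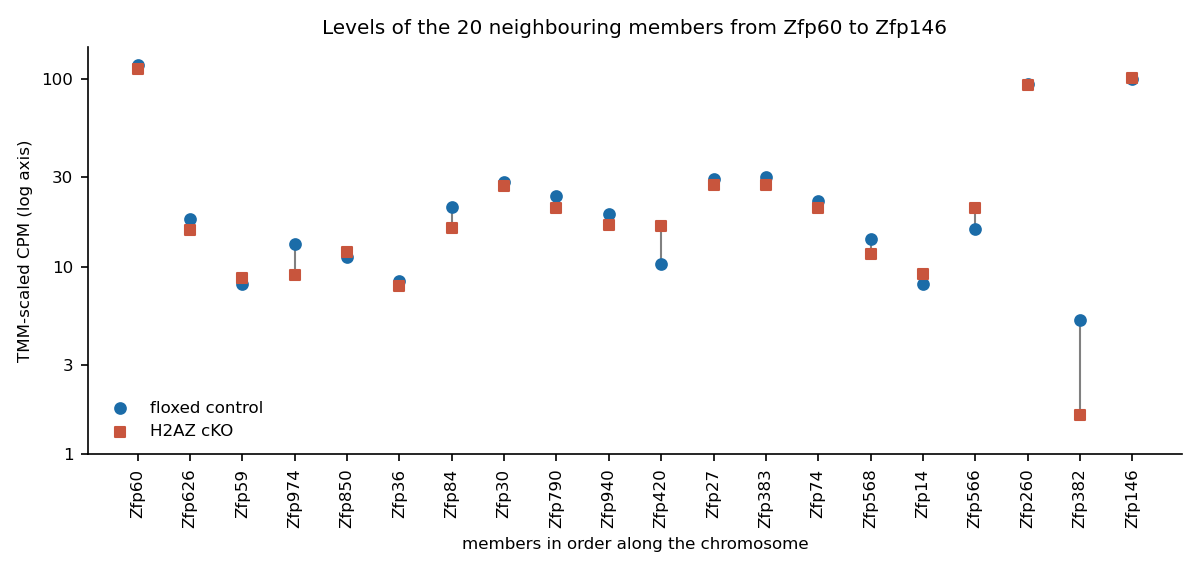
Levels in CPM (log axis) of the 20 genes from Zfp60 to Zfp146 in the knockout and the control, 1 library each, in chromosome order, joined by a line for each gene. Zfp382 is lower in the knockout (1.61 against 5.21 CPM) and Zfp420 higher (16.5 against 10.3 CPM).

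Neighbouring genes were grouped, with a new group started wherever over 2 Mb separated a gene from the next, which gave 10 groups. All 7 groups of at least 3 genes had a median log2 ratio below 0, though that from Zfp553 to Zfp646 was close to it, at -0.00405. The lowest median, -0.57, was that of the 4 genes from Zfp507 to Zfp619, at 35772343 to 39540420, where every interval lay below 1. This group depends on the gap chosen: among groups of at least 3 genes the lowest median was -0.23 with gaps of 1 Mb, which split these 4 genes, and -0.21 with gaps of 5 Mb, which joined them to the genes up to Zfp473. Zfp507 had 123 and 204 counts (0.624, 0.495 to 0.784), and 27.5% of its 50-base words occur in other genes, so its reads may be shared. Zfp536, a known repressor of neuronal differentiation, had 252 and 329 (0.792, 0.670 to 0.937). Zfp939, a transcribed pseudogene in GENCODE, had 51 and 81 (0.651, 0.450 to 0.936), and Zfp619, with 33 fingers the longest array, 57 and 85 (0.694, 0.487 to 0.982). These 4 genes together had 483 and 699 counts, a ratio of 0.715 (0.635 to 0.804). The group was singled out for its low median in these same counts, so the summed ratio and its interval add no support. The 8 other genes within the group had a median log2 ratio of 0.15.

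The 15 genes from Zfp628 to Zfp772 had 11 ratios below 1 and a median log2 ratio of -0.09. Zfp667 was lowest, with 97 and 141 counts (0.712, 0.544 to 0.928), and Zfp28 had 146 and 194 (0.779, 0.624 to 0.970). Zfp787 was highest, with 300 and 269 (1.15, 0.975 to 1.37), and Zfp444, a SCAN-domain gene, had 674 and 611 (1.14, 1.02 to 1.28). Zfp579, abundant here, had 1230 and 1282 (0.993). In the 7 genes from Zfp551 to Zfp446 the median was -0.11. Among those with at least 50 counts the ratio ran from Zfp324, with 149 and 201 counts (0.767, 0.616 to 0.953), to Zfp446, with 186 and 188 (1.02). Zfp551, above them, was at the edge of the minimum with 17 and 11 counts (1.60, 0.706 to 3.78), so its interval includes 1.

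From Zfp180 to Zfp526, 10 of 13 genes were below 1, with a median of -0.23. Zfp526 had 69 and 102 counts (0.700, 0.508 to 0.959), Zfp94 100 and 141 (0.734, 0.562 to 0.955), and Zfp574 675 and 779 (0.896, 0.807 to 0.995). Zfp108 had only 12 and 27 counts (0.460, 0.212 to 0.939), and Zfp109 only 13 and 22 (0.611, 0.283 to 1.27). Both are near the minimum, and only the interval of Zfp108 lay below 1. Zfp428, the most counted of the 82, had a higher count in the knockout, with 1402 and 1161 counts (1.25, 1.16 to 1.35). Its log2 ratio of 0.32 became 0.12 once the trend of all genes on transcript length, GC and expression was subtracted. The same step took Zfp507 from -0.681 to -0.575, short of 1.5-fold, and Zfp771, further along the chromosome, from 0.263 to 0.0784. With it 4 of the 82 genes were at least 1.5-fold lower and 2 higher, and their median log2 ratio stayed at -0.10. The share of all genes past 1.5-fold after this step was not computed. Zfp235 had 140 and 124 counts (1.17), with an interval that included 1.

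In the stretch of Zfp382 and Zfp420, 14 of 20 genes were below 1 and the median was -0.10. Zfp974 had 79 and 119 counts (0.687, 0.510 to 0.920) and Zfp84 140 and 187 (0.775, 0.618 to 0.969). Zfp566 went the other way with 179 and 143 (1.30, 1.03 to 1.62). The abundant Zfp60 had 986 and 1078 counts (0.946, 0.867 to 1.03), Zfp260 809 and 847 (0.988), and Zfp146, which encodes little besides its fingers, 880 and 900 (1.01). Of the 8 genes from Zfp788 to Zfp473 none had an interval off 1. Among those with a summed count of at least 50, the ratio ran from Zfp975, with 28 and 41 counts (0.707, 0.421 to 1.17), to Zfp788, with 377 and 355 (1.10, 0.948 to 1.27). Zfp473, with 19 and 17 counts, was at 1.16 (0.569 to 2.37).

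The 10 genes from Zfp553 to Zfp646 divided evenly, with 5 below 1. Their median log2 ratio was -0.00405, and 0.0037 with the trend on length, GC and expression subtracted. Zfp689 had 239 and 194 counts (1.27, 1.05 to 1.55) and Zfp771 493 and 425 (1.20, 1.05 to 1.37). Zfp668 had 324 and 419 (0.800, 0.690 to 0.927) and Zfp629 774 and 911 (0.879, 0.798 to 0.968). Of the named genes among the 82, Zfp473, Zfp689, Zfp668, Zfp553, Zfp646, Zfp710 and Zfp511 are each overlapped by a counted gene on the opposite strand. They are among 9 of the 82 with such an overlap, and the sources used here do not say whether counting used strand. Zfp688 had 138 and 125 (1.14, 0.890 to 1.47), Zfp553 762 and 777 (1.01), and Zfp646 738 and 791 (0.965). Outside the larger groups, Zfp710 had 690 and 706 (1.01), Zfp592 455 and 479 (0.983), Zfp511 364 and 307 (1.23, 1.05 to 1.43) and Zfp941 55 and 65 (0.875, its interval including 1).

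The deposited table lists a KRAB domain for 50 of the 82 genes, of which 39 (78.0%) were below 1, with a median log2 ratio of -0.14. Of the 29 with neither KRAB nor SCAN listed, 17 (58.6%) were below 1, with a median of -0.03. The table lists 1 domain a gene, so a gene without KRAB there may still encode it. The KRAB genes were also less abundant, with a median of 14.8 CPM in the control against 45.7. Their median transcript GC was 45.8% against 54.1%. With the trend on length, GC and expression subtracted, 76% of the KRAB genes and 65.5% of those 29 were below a log2 ratio of 0. The medians were then -0.13 and -0.07. Among 178 KRAB-listed genes of other chromosomes 66.3% were below 1. By finger number, 6 of 15 genes with up to 7 fingers were below 1, 27 of 34 with 8 to 12, and 23 of 32 with at least 13. Zfp36, which has 0 C2H2 fingers, encodes an RNA-binding protein of another zinc finger type and had 69 and 76 counts (0.939).

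**Figure D5:**
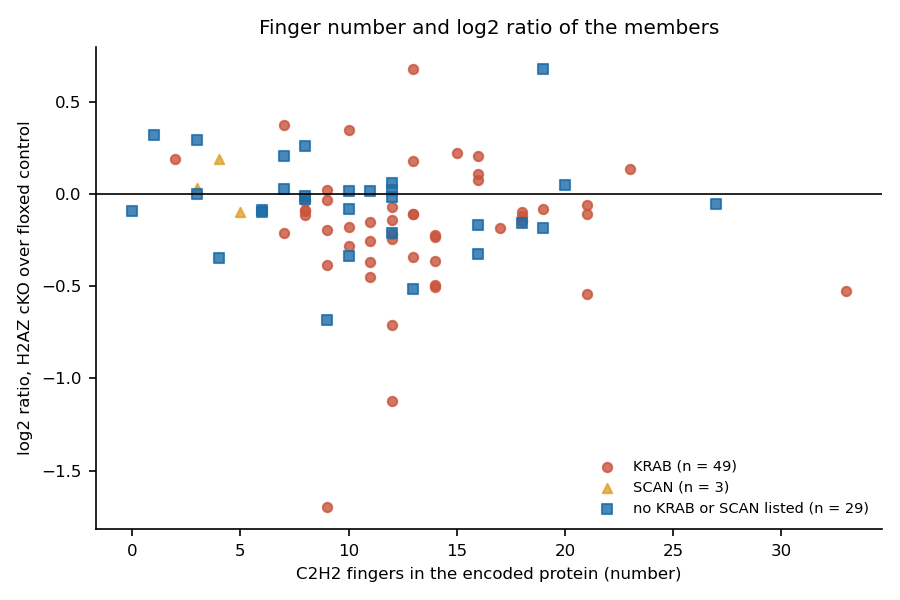
Number of C2H2 fingers in the annotated protein (x axis) against the log2 ratio of knockout to control (y axis) for 81 genes, coloured by the domain listed in the deposited table. Of genes with 8 to 12 fingers 27 of 34 lie below 0, and of those with up to 7 fingers 6 of 15.

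The 152 other genes lying within the groups had 76 ratios below 1 and a median log2 ratio of 0.00177 (-0.04 when scaled by total count). With the trend on length, GC and expression subtracted, their median was -0.05 and 59.9% were below 0. So were 56.1% of the other 996 genes of the chromosome, 51.7% of all genes and 70.7% of the 82. Of the 152, 11 are zinc finger genes of other names, and 9 of the 11 were below 1. Peg3, an imprinted zinc finger gene, had 1138 and 1680 counts (0.701, 0.649 to 0.756), and its neighbour Zim1 55 and 71 (0.801, 0.553 to 1.16). Zscan22 had 176 and 204 counts (0.893), Zscan18 130 and 136 (0.989), Zscan2 357 and 367 (1.01) and Zkscan2, elsewhere on the chromosome, 360 and 444 (0.839, 0.728 to 0.966). Among the rest, Srcap had 65 and 94 counts, a ratio of 0.715 (0.513 to 0.992). Gm42715, which overlaps Srcap on the same strand, had 63 and 59 (1.10, 0.762 to 1.60). Highest of the rest, at a summed count of at least 100, were Ppp1r14a (1.57), Rps19 (1.37) and Sept1 (1.32).

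A list of 34 genes of co-repressors and chromatin factors linked to KRAB silencing, which also holds the KRAB gene Zfp57 and the DNA repair gene Trp53bp1, had 0 genes at least 1.5-fold lower (beside 4.45 percent of all genes) and 0 higher (beside 3.35 percent). There were 16 below 1 and 18 above, with a median log2 ratio of 0.02 that became -0.03 when scaled by total count. The counting interval lay below 1 for 10 of the 34 (29.4%, beside 11.3 percent of all genes). It lay above 1 for 8 (23.5%, beside 12.9 percent). The listed genes were abundant, with a median of 177 CPM in the control against 30.9 over all genes, and higher counts give narrower intervals. Trim28, the KRAB co-repressor, had 6662 and 6485 counts (1.06, 1.03 to 1.10). Setdb1, the histone methyltransferase it recruits, had 1007 and 1207 (0.863, 0.793 to 0.939). The DNA methyltransferase gene Dnmt3a (0.796, 0.738 to 0.859) and the Setdb1 partner Atf7ip (0.830, 0.772 to 0.893) were lower, as was Trp53bp1 (0.860). Cbx3, which encodes a heterochromatin protein, was higher (1.17, 1.11 to 1.23), and Mphosph8 (1.03 to 1.34) was too, while the interval of Dnmt3b (1.20, 0.844 to 1.71) included 1.

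Per kilobase of exon, control levels ran from 98.4 CPM per kb for Zfp428 and 36.0 for Zfp580 down to 0.188 for Zfp473. Summed counts over both libraries had a median of 325 and ran from 28 for Zfp551 to 2563 for Zfp428. Just inside the minimum were Zfp551 and Zfp109, with 28 and 35 counts, and just outside Zfp78 and Zfp82, with 18 and 17.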

How the data were processed

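Per the file headers, the authors deposited read counts per Ensembl gene, 1 column per genotype. Whether a column pools replicates is not stated in those headers or the labels. The submitters' processing notes name Bowtie2 2.2.3, TopHat2 2.0.12, HTSeq 0.6.0 and build mm9, but positions of all 82 genes overlap the same gene in GENCODE M21 (GRCm38) and 63 are identical. The column headed WT was read as that of the floxed control. The 2 deposited normalized columns were not used. Of the identifiers 19112 had a symbol and 90 had none.

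TMM factors (0.986 for the knockout, 1.01 for the control) were computed by edgeR 4.0.16 (R 4.3.3). DESeq2 1.42.0 supplied size factors for an alternative. Ratios, exact 95% Clopper-Pearson intervals and summaries were computed in Python 3.11.15 with scipy 1.17.1, with a count of 0 set at 3. The ratios, their intervals and the 1.5-fold rule were tried on simulated counts that varied by counting error alone, as the intervals assume. Genes changed in the simulation had at least 100 counts and changes of at least 2-fold. That trial therefore cannot show variation between samples, nor how changes at lower counts are recovered. With 1 column per genotype no test between genotypes was made. Named are genes past 1.5-fold with at least 100 counts, the 10 lowest and 10 highest ratios at 50 counts or more, the 8 most counted, those at the edge of the minimum, all genes of groups of 5 or fewer and the extremes of each group. Others were named after their values were seen, and 1 gene that the rule names is not reported here. The genes and lists were chosen with earlier results of these data known. The ZFP143 core was chosen after a promoter had been read. The authors' mark of significance in the deposited table is a yes or no of a test that the table does not name.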

Additional observations from a re-analysis of the deposited data

How the results depend on the processing

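Scaling by total count moved the median log2 ratio of the 82 genes from -0.10 to -0.14. A scaling shifts every log2 ratio alike, so its difference from the median of all genes, -0.10, cannot change. With that scaling 78.0% of the 82 and 56.2% of all genes were below 1. The median of the genes between them went from 0.00177 to -0.0389 with total counts and -0.0214 with DESeq2 size factors, and that of the co-repressor list from 0.02 to -0.0251 and -0.00764. Both turned direction, as did the median of all genes, from 0.01 to -0.03 and -0.02. The number at least 1.5-fold lower, 5, became 9 of 88 with no minimum, 2 of 72 with at least 100 counts, 3 with 1 CPM added, 2 at 2-fold, and 2 of 62 without genes that share 10% or more of their 50-base words, an alternative chosen after seeing the data. The number at least 1.5-fold higher, 2, became 1 with at least 100 counts, 1 with 1 CPM added and 0 at 2-fold. Apart from 2-fold, the share of all genes was not computed under the alternatives that changed these counts. The lowest group median, -0.57, became -0.23 with gaps of 1 Mb and -0.21 with gaps of 5 Mb. These changes follow from which genes each alternative tests or groups, from the scale, from the CPM added or from the size required. The other 26 values tried kept their direction and stayed within the margin used. Depth limits Zfp108, Zfp109 and Zfp551, whose counts are low, and also Zfp382, which had 14 and 47 counts. No paired analysis was possible because each genotype has 1 column.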

Other observations

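Promoters of these zinc finger genes held a median of 14 CpG dinucleotides in 300 bases, against 21 for all genes with at least 20 counts. Their median GC content was 54.7%, against 61.3%. The Zfp382 promoter held 32 CpG and the Zfp420 promoter 11. CCAAT boxes were in 42.7% of promoters of the zinc finger genes and 38.8% of all promoters, TATAAA in 5.33% and 6.59%, and CCGGAAG in 22.7% and 18.0%, each searched on both strands.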
